A study of Homo sapiens with 32 samples.

Results

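ALDH3A1, FGFBP1, RIPOR2 and CAMK2B are 4 genes whose transcripts were strongly reduced in TGFβ1-treated MCF10A cells with intact JUNB and less so in JUNB-edited cells. They were selected on the measured values of the libraries described here, for a deep decrease in wild-type cells that was shallower in edited cells, and all of them were found by Ensembl identifier among the 17788 genes of the table. All 4 passed the low-count filter that left 14865 genes for testing. Because the treatment response in either genotype, the difference between those responses and the difference between genotypes are what chose them, their values in these contrasts are given as a description without a test. Tests were kept to differences between clones of the same genotype, which the choice did not use, and to related genes that are not among the 4.

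MCF10A is an established line of human mammary epithelial cells that do not form tumours. The wild-type group (WT) comprised clones 27 and 2, and the edited group (mut) comprised clones 1 and 65, which were labelled as JUNB knock-out. The study describes an extended CRISPR/Cas9 deletion in these clones and a shortened JUNB polypeptide that was still detected. Every clone was grown from a single cell, so that each genotype is represented by 2 clones, and genotype and clonal background cannot be fully told apart. Each clone received either solvent (labelled 0 h) or 5 ng/ml TGFβ1 for 6, 24 or 72 h in 2 replications, which made 8 groups of 4 libraries. The study states that controls were kept in solvent for 72 h and that all samples were harvested at the same time after seeding. The times are therefore lengths of treatment and not successive harvests. All groups shared the growth medium of this line, with EGF, insulin, hydrocortisone, cholera toxin and horse serum. A clone with its replication number is called a series and written, for example, as 27-2.

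TGFβ1 is a cytokine that acts through receptor serine/threonine kinases and SMAD proteins, and in mammary epithelial cells it brings about an epithelial-mesenchymal transition (EMT), in which epithelial genes are switched off while mesenchymal genes are switched on. JUNB is a subunit of AP-1, a transcription factor that binds DNA as a dimer and often occupies the same regulatory elements as SMADs. The 4 genes belong to different protein families. ALDH3A1 encodes an aldehyde dehydrogenase that oxidises aromatic and medium-chain aldehydes and is known as an inducible target of the aryl hydrocarbon receptor AHR. FGFBP1 encodes a secreted carrier that binds fibroblast growth factors and releases them from the heparan sulfate of the matrix, RIPOR2 an inhibitor of the small GTPase RHOA, and CAMK2B the beta subunit of the calcium/calmodulin-dependent kinase CaMKII, best known from neurons.

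In the annotation (GENCODE 44, GRCh38) all 4 genes lie on the minus strand. ALDH3A1 (ENSG00000108602) spans chr17:19737984-19748943, FGFBP1 (ENSG00000137440) chr4:15935577-15938740, RIPOR2 (ENSG00000111913) chr6:24804282-25042170 and CAMK2B (ENSG00000058404) chr7:44210019-44334577. Promoter sequences were available from RefSeq (GRCh38.p14) for 3 of the 4 genes, FGFBP1, RIPOR2 and CAMK2B. The 250 bases upstream of a start site are shown for these genes because the genes respond to a SMAD-activating cytokine and were compared between cells that differ in an AP-1 subunit. They are written 5′ to 3′ on the minus strand, with capitals marking matches, on either strand, to the AP-1 site TGANTCA, the SMAD box CAGAC or the E-box CACCTG. The E-box is the letter pattern that SNAIL and ZEB repressors bind.
FGFBP1, chr4:15938741-15938990: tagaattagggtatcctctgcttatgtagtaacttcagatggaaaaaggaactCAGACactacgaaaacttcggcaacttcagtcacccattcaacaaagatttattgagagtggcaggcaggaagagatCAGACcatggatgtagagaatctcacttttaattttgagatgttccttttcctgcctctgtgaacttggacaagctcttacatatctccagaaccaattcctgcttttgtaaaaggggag
RIPOR2, canonical start, chr6:24935961-24936210: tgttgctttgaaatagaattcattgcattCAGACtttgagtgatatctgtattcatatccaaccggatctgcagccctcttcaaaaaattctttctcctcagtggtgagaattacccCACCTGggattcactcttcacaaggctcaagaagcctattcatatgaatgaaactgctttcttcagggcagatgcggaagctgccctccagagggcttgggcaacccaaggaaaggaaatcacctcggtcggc
RIPOR2, start within the gene, chr6:24877271-24877520: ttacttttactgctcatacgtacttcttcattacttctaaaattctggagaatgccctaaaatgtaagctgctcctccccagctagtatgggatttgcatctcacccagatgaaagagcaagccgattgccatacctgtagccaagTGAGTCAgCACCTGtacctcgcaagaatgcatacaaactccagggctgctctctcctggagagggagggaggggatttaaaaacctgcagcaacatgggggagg
CAMK2B, chr7:44325595-44325844: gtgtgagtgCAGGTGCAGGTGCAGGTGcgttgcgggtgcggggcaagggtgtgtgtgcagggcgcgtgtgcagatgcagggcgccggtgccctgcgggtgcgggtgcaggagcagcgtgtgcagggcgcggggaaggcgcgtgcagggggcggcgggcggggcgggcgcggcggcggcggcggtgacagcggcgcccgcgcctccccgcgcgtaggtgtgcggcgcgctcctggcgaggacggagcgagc
The FGFBP1 window held 2 SMAD boxes, which begin 197 and 120 bases before the start site. The canonical RIPOR2 window held a SMAD box at 221 bases and an E-box at 133 bases. The other RIPOR2 window printed, chr6:24877271-24877520, belongs to a non-canonical start, and the canonical start lies within the gene as well. This window held TGAGTCA, a full AP-1 match, at 104 bases and an E-box at 96 bases, next to each other. Of the 5 RIPOR2 windows in the table, 1 further window, at the most distal start, held an AP-1 match (TGATTCA at 229 bases). The remaining RIPOR2 windows, the canonical one among them, held none. The CAMK2B window held 3 E-box matches in tandem, read on the opposite strand as CAGGTG, at 241, 235 and 229 bases. Among the 34943 upstream windows of the same length, 6.59% held the AP-1 pattern, 38.0% the SMAD box and 17.5% the E-box. These shares are per window, whereas RIPOR2 had 5 windows in which a match could occur. These matches are letters in a window and do not show binding, and which RIPOR2 start these cells use is not given by counts per gene.

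The libraries held between 39702412 and 54651906 counts, at which 3 counts correspond to 0.0549 to 0.0756 CPM (counts per 1e6 counts of the library). All 8 mammary epithelial markers were in the table, and KRT5, a basal keratin, stood at 3262 to 8158 CPM. The summed level of the 8 markers was 9970 to 12815 CPM in WT solvent, 9905 to 14844 CPM in WT at 72 h, 13240 to 15347 CPM in mut solvent and 12585 to 15458 CPM in mut at 72 h. Abundant keratins make up most of this sum, which hides wider ranges of single markers. Over all libraries KRT14 ranged from 181 to 2189 CPM, KRT17 from 1059 to 4761 CPM and CDH1 from 147 to 599 CPM. Of 8 leukocyte, endothelial and hormone receptor markers 4 were in the table. The leukocyte gene PTPRC and the T cell gene CD3E were at 0 in some libraries and below the level of 3 counts in all, and ESR1 ranged from 0.0438 to 1.22 CPM. JUNB transcripts stood at 97.6 ± 12.9 CPM (SD, n = 4) in WT solvent and 112 ± 47.9 CPM in mut solvent, a log2 difference of 0.10 ± 0.34 (SE) that did not pass (limma-voom adjusted p = 0.885). The counts per gene therefore do not check the edit, which removes part of the gene.

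ALDH3A1 went to a mean of 8.68 CPM in WT cells after 72 h of TGFβ1, whereas edited cells still held 109 CPM. Library values are listed throughout for WT in the order 27-1, 2-1, 27-2 and 2-2 and for mut in the order 1-1, 65-1, 1-2 and 65-2. In WT, ALDH3A1 stood at 174, 256, 84.9 and 411 CPM in solvent, at 149, 169.6, 77.6 and 329 CPM after 6 h, at 25.3, 20.0, 12.8 and 44.8 CPM after 24 h and at 6.92, 9.91, 8.62 and 9.28 CPM after 72 h. The solvent libraries were widely spread and overlapped those of 6 h, while all 24 h libraries lay below both, and all 72 h libraries lay below those of 24 h in a narrow band. In mut, the values were 267, 285, 259.6 and 291 CPM in solvent, 239, 249, 294 and 261 CPM after 6 h, 85.8, 105, 205 and 121 CPM after 24 h and 94.5, 112, 96.3 and 132 CPM after 72 h. The mut solvent and 6 h libraries overlapped and those of 24 and 72 h lay below them, but the last time points overlapped each other. The group means were 231 ± 138 CPM (SD, n = 4) in WT solvent and 8.68 ± 1.29 CPM in WT at 72 h, against 276 ± 14.7 and 109 ± 17.6 CPM in mut. In these bulk samples, fewer cells with the transcript and less of it per cell cannot be told apart.

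FGFBP1 was the member whose level in edited cells moved least. In WT it stood at 229, 209, 139.8 and 181 CPM in solvent, at 127, 74.6, 79.2 and 85.8 CPM after 6 h, at 61.5, 47.1, 26.5 and 35.2 CPM after 24 h and at 25.6, 25.1, 25.6 and 16 CPM after 72 h. None of these 4 WT groups overlapped, and each time point lay below the one before it. In mut, FGFBP1 stood at 179.5, 155, 86.0 and 75.0 CPM in solvent, at 112, 98.0, 102 and 59.2 CPM after 6 h, at 82.7, 102, 94.2 and 64.6 CPM after 24 h and at 117, 127, 74.7 and 61 CPM after 72 h. All mut groups overlapped, and the spread among the solvent libraries (124 ± 51.3 CPM, SD, n = 4) was wider than the distance to the 72 h mean of 94.8 ± 31.9 CPM. The mut libraries differed by replication, with a mean of 167 CPM in replication 1 and 80.5 CPM in replication 2 in solvent, and 122 and 67.8 CPM at 72 h.

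RIPOR2 differed most between the genotypes already without TGFβ1. In WT its values were 15.5, 10.8, 6.20 and 15.7 CPM in solvent, 9.16, 3.14, 3.11 and 4.18 CPM after 6 h, 2.45, 1.90, 0.511 and 1.42 CPM after 24 h and 0.439, 0.793, 0.728 and 0.457 CPM after 72 h. The WT solvent and 6 h libraries overlapped, as did those of 24 and 72 h, with a clear step between 6 and 24 h. The WT values at 72 h rest on few reads, 20 to 36 counts per library. In mut, RIPOR2 stood at 109, 98.2, 83.9 and 89.5 CPM in solvent, at 67.1, 59.2, 83.4 and 45.7 CPM after 6 h, at 34.4, 48.9, 46.2 and 36.1 CPM after 24 h and at 35.8, 43.2, 25.1 and 31.7 CPM after 72 h. The lowest mut library of any time, at 25.1 CPM, lay above the highest WT library, at 15.7 CPM in solvent. The group means went from 12 ± 4.51 to 0.604 ± 0.182 CPM (SD, n = 4) in WT and from 95.2 ± 11 to 34.0 ± 7.58 CPM in mut.

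CAMK2B behaved in WT much as ALDH3A1 did, with the first clear step already at 6 h. Its WT values were 106, 162, 77.8 and 203 CPM in solvent, 68.0, 74.0, 54.5 and 74.1 CPM after 6 h, 12, 15.3, 14.3 and 12.5 CPM after 24 h and 4.39, 7.11, 10.5 and 5.44 CPM after 72 h. No WT group overlapped another. In mut, CAMK2B stood at 239.9, 293, 189 and 243 CPM in solvent, at 148, 219, 198 and 163 CPM after 6 h, at 52.7, 106, 105 and 84.0 CPM after 24 h and at 57.0, 118, 38.8 and 106 CPM after 72 h. The mut libraries at 24 and 72 h lay below all of solvent and 6 h, and at 72 h both libraries of clone 65 were higher than both of clone 1. The group means were 137 ± 56.4 and 6.87 ± 2.68 CPM (SD, n = 4) in WT and 241 ± 42.4 and 79.8 ± 37.9 CPM in mut. CAMK2B shares 2325 exon bases with YKT6, a SNARE protein gene on the opposite strand. The library kit keeps no strand, so that reads from these bases cannot be assigned to a gene by strand. How the counting treated them is not given. YKT6 rose in WT at 72 h (127 ± 5.94 to 190.4 ± 13.3 CPM, log2 change 0.58 ± 0.07, limma-voom adjusted p = 5.47e-08), in the direction opposite to CAMK2B, and in mut (0.19 ± 0.07, adjusted p = 0.0422, 117 ± 4.37 to 134 ± 10.4 CPM, interaction −0.39 ± 0.10, adjusted p = 0.00778).

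**Figure D1:**
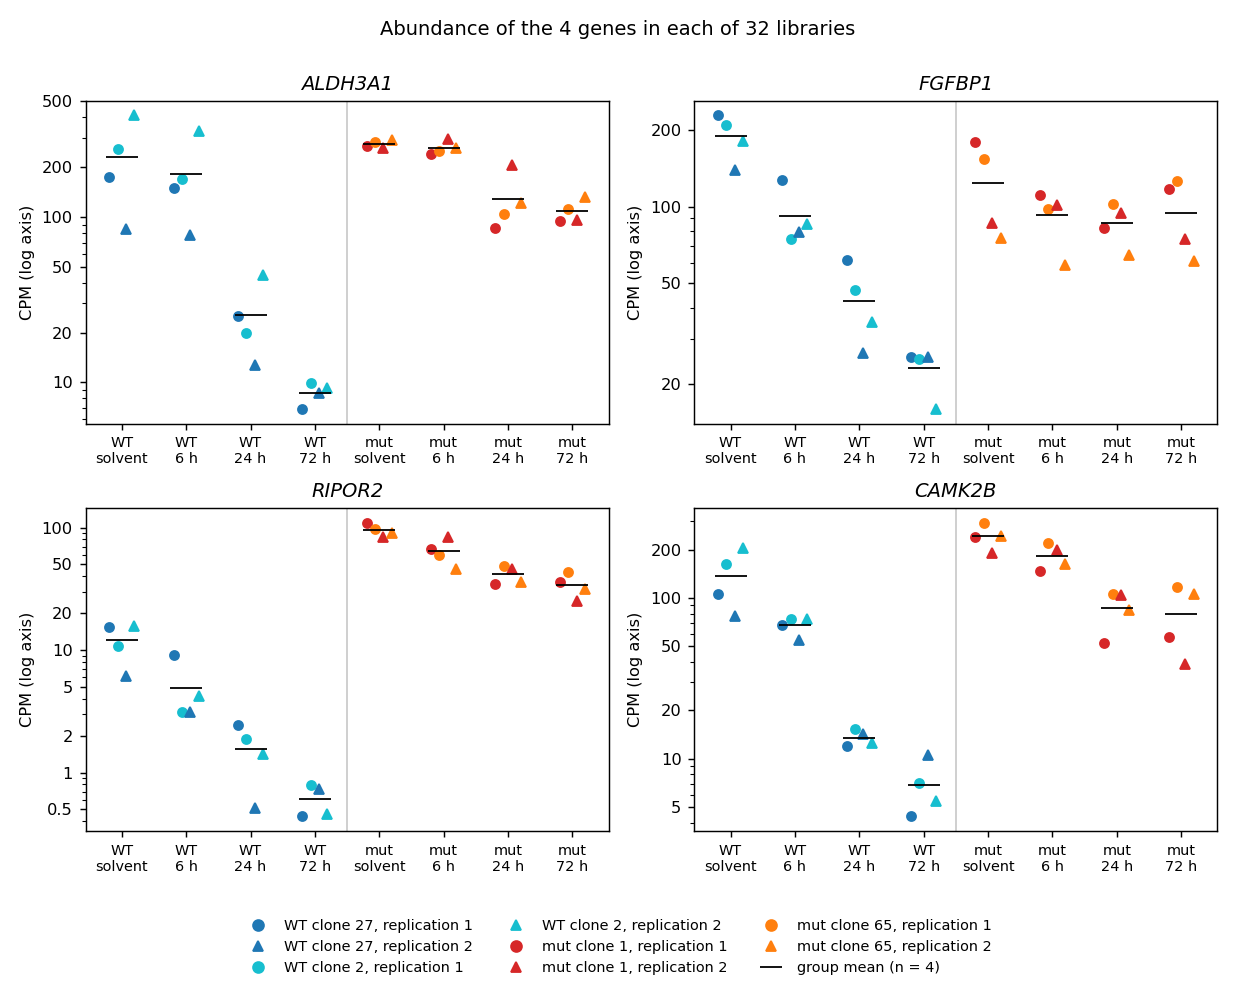
CPM on a log axis for each of the 32 libraries in 4 panels, 1 per gene, with the 8 groups along the horizontal axis, points coloured by clone and bars at the group means (n = 4). WT means end at 8.68 (ALDH3A1), 23.1 (FGFBP1), 0.604 (RIPOR2) and 6.87 CPM (CAMK2B), whereas the mut means at 72 h are 109, 94.8, 34.0 and 79.8 CPM.

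Compared per kilobase of exon sequence, the genes stood in the same order in both genotypes, in solvent and after 72 h of TGFβ1. FGFBP1 had 140.4 CPM per kb in WT solvent, ALDH3A1 59.7, CAMK2B 11.8 and RIPOR2 1.28. In mut solvent the levels per kb were 91.7, 71.1, 20.8 and 10.1 CPM per kb in the same order. The libraries of FGFBP1 and ALDH3A1, the neighbours at the top, overlapped in solvent in either genotype. After 72 h of TGFβ1 the levels were 17.1, 2.24, 0.592 and 0.0640 CPM per kb in WT, and 70.2, 28.0, 6.88 and 3.60 in mut. RIPOR2 was thus the least abundant of the 4 per length in each of these groups.

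Relative to the solvent mean of the same genotype, WT cells retained 3.75% of the ALDH3A1 level at 72 h, 12.2% of FGFBP1, 5.02% of RIPOR2 and 5.00% of CAMK2B. Edited cells retained 39.4%, 76.6%, 35.7% and 33.1%. In the limma-voom fit the WT log2 changes were −4.53 ± 0.54 (SE) for ALDH3A1, −3.04 ± 0.32 for FGFBP1, −4.26 ± 0.74 for RIPOR2 and −4.29 ± 0.45 for CAMK2B. The corresponding mut changes were −1.36 ± 0.35, −0.35 ± 0.27, −1.52 ± 0.19 and −1.73 ± 0.27. The 95% interval of the FGFBP1 change in mut ran from −0.91 to 0.20, which is given as a description and not as a test. Over all genes tested, 38.4% passed an adjusted p of 0.05 as lower and 13.9% as higher in WT, and 16.3% as lower and 7.81% as higher in mut. These shares depend on the scaling by library size. It placed the median of all genes in WT at a log2 change of −0.19, against −0.03 with trimmed mean of M-values (TMM) factors, under which the WT calls were 3189 higher and 3459 lower instead of 2061 and 5705, and the mut calls 1596 and 1473 instead of 1161 and 2423. The WT changes of the 4 genes, and the mut changes of ALDH3A1, RIPOR2 and CAMK2B, are far larger than this shift. The smaller FGFBP1 change in mut was −0.35 and became −0.28 with TMM factors.

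The mut change was smaller than the WT change for every member, by a log2 interaction (mut change minus WT change) of 3.17 ± 0.64 for ALDH3A1, 2.69 ± 0.42 for FGFBP1, 2.74 ± 0.77 for RIPOR2 and 2.55 ± 0.52 for CAMK2B. Expressed as a share of the WT log2 change, edited cells made 29.9%, 11.6%, 35.6% and 40.5% of it. The interaction passed the threshold as higher for 9.4% of all genes tested and as lower for 2.92%. With TMM factors these calls were 674 and 617 instead of 1397 and 434. Since the interaction chose the 4 genes, nothing follows from their place in this distribution. In order of the WT decrease they ranked 14 (ALDH3A1), 105 (FGFBP1), 19 (RIPOR2) and 18 (CAMK2B) of 14865 genes.

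The time courses differed among the members in how early the change came. At 6 h, ALDH3A1 had made 6.95% of its 72 h log2 change in WT, CAMK2B 21.8%, RIPOR2 32.3% and FGFBP1 34.9%. At 24 h all had made between 68.6% (ALDH3A1) and 76.0% (CAMK2B) of it. The level was lower at each next time in 4 of 4 WT series, except for RIPOR2 from 24 to 72 h, where it was lower in 3 of 4. In mut cells the last step was not shared by the series. From 24 to 72 h the level was lower in 1 of 4 mut series for ALDH3A1, 2 for FGFBP1, 3 for RIPOR2 and 1 for CAMK2B. Series 1-2 retained the highest share of its solvent level among the mut series at 6 and 24 h for every gene. At 6 h it held 113% (ALDH3A1), 118% (FGFBP1), 99.4% (RIPOR2) and 104% (CAMK2B). It was also the falling series for ALDH3A1 (79.1% at 24 h, 37.1% at 72 h) and CAMK2B (55.2% and 20.5%). The interaction had point estimates of 0.23 to 0.76 at 6 h and 1.74 to 1.93 at 24 h before reaching those of 72 h.

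Each series can also be read against its own solvent library. For ALDH3A1 the WT series 27-1, 27-2, 2-1 and 2-2 retained 3.97%, 10.1%, 3.87% and 2.26% at 72 h, and the mut series 1-1, 1-2, 65-1 and 65-2 retained 35.4%, 37.1%, 39.2% and 45.5%. For FGFBP1 the shares were 11.2%, 18.3%, 12% and 8.83% in WT and 65.2%, 86.8%, 81.7% and 81.4% in mut. Series 27-2 retained the highest share of the WT series for both genes. For RIPOR2 the WT shares were 2.83%, 11.8%, 7.35% and 2.92% against 32.8%, 29.9%, 44% and 35.4% in mut. For CAMK2B they were 4.16%, 13.5%, 4.38% and 2.67% against 23.8%, 20.5%, 40.1% and 43.6%. No WT series reached the lowest mut series for any member. Series 27-2 was again the highest in WT, and it also had the lowest solvent level of all 4 genes among the WT libraries. Without it the WT log2 changes were −4.94, −3.24, −4.64 and −4.78 in the order ALDH3A1, FGFBP1, RIPOR2 and CAMK2B. Within replication 1 the mut change exceeded the WT change by 3.25, 2.66, 3.03 and 2.85 on the log2 scale, and within replication 2 by 3.10, 2.73, 2.45 and 2.31. The genes were chosen on these same libraries, so that the shared direction is no independent replication.

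**Figure D2:**
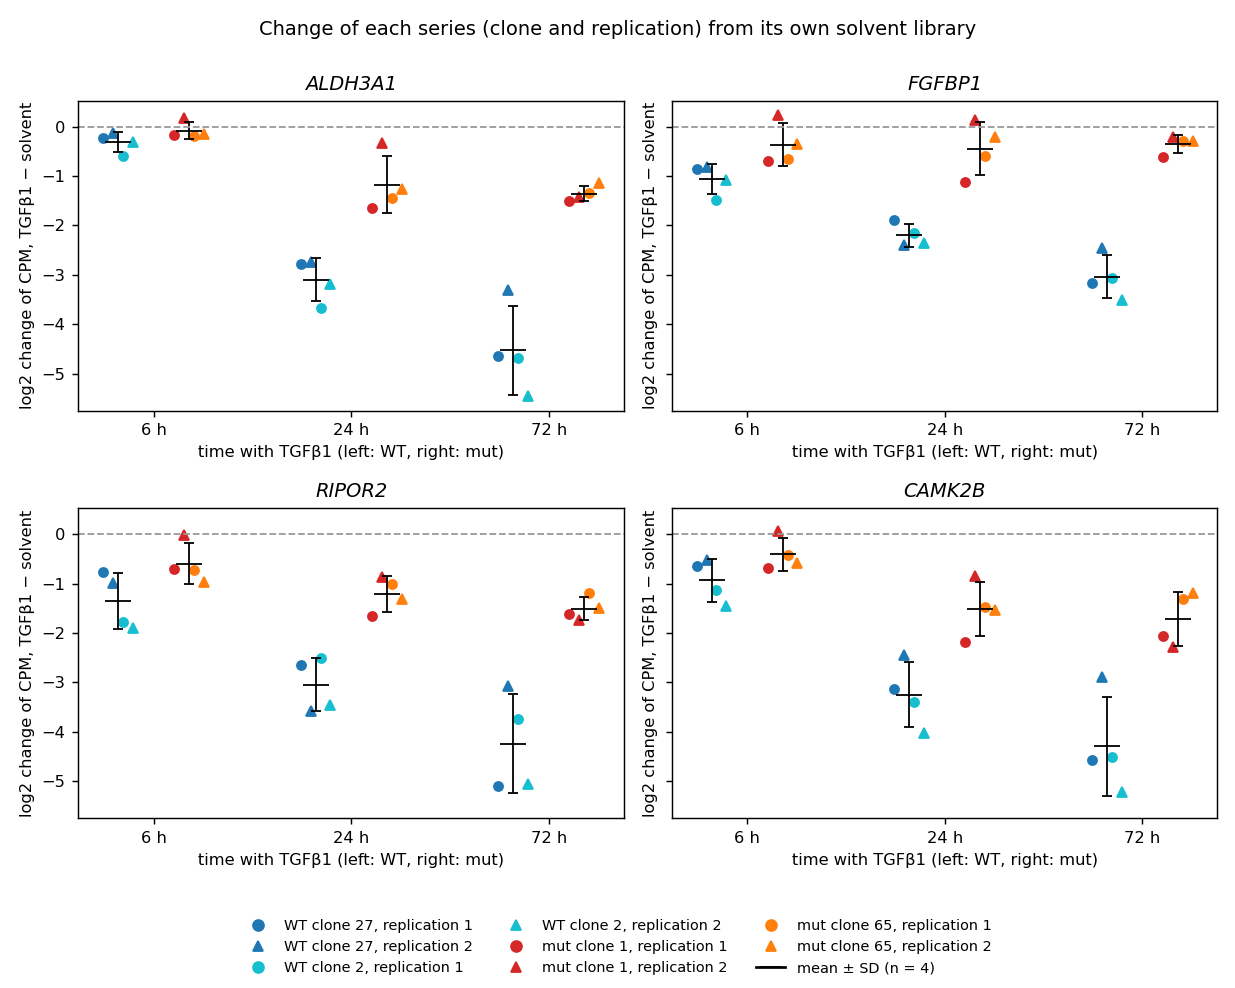
Log2 change of CPM of each series from its own solvent library after 6, 24 and 72 h of TGFβ1, in 4 panels, 1 per gene, with WT series at the left and mut series at the right of each time and bars for the mean ± SD (n = 4). At 72 h the highest WT series, 27-2, retained 10.1% to 18.3% of its solvent level and the lowest mut series of each gene 20.5% to 65.2%.

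In solvent, without TGFβ1, the genes did not share a direction between genotypes. RIPOR2 was 7.91 times as high in mut as in WT by group means (log2 difference 3.05 ± 0.24, SE), and its solvent libraries did not overlap. CAMK2B was 1.76 times as high (0.89 ± 0.27), with 3 of 4 mut libraries above every WT library. ALDH3A1 was 1.19 times as high (0.47 ± 0.35) and FGFBP1 0.653 times as high (−0.69 ± 0.27), and for both the libraries overlapped. Of all genes tested 6.38% passed the threshold as higher and 6.32% as lower in mut solvent.

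At 72 h the mut means were 12.5 times the WT means for ALDH3A1, 4.11 times for FGFBP1, 56.2 times for RIPOR2 and 11.6 times for CAMK2B, with no overlap of libraries. The mut level at 72 h still lay near or below the WT solvent level for 3 of the genes, at 47.0% for ALDH3A1, 50.0% for FGFBP1 and 58.1% for CAMK2B. For RIPOR2 it was 282% of the WT solvent level, so that TGFβ1-treated edited cells held more RIPOR2 transcript than solvent-treated WT cells. The ratio of mut to WT grew at each time for every gene. For FGFBP1 it was 1.01 at 6 h and 2.02 at 24 h, and for RIPOR2 13 and 26.4.

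Differences between the clones of a genotype were tested with limma-voom, with the series as a random block and all p-values adjusted over the 14865 genes. Averaged over the 4 treatment states, the estimate of clone 65 minus clone 1 was a log2 difference of 0.52 for CAMK2B (95% interval 0.14 to 0.89, limma-voom adjusted p = 0.269). The other members differed by 0.05 (−0.44 to 0.53) for ALDH3A1, −0.23 (−0.72 to 0.27) for FGFBP1 and −0.04 (−0.38 to 0.30) for RIPOR2. Thus 0 of the 4 genes passed, where 1.31% of all genes did. Over all genes 195 passed, 1292 had an unadjusted p under 0.05, 513 passed in the edgeR quasi-likelihood test without the block and 28 on sums over the libraries of a series. Without the block CAMK2B passed in limma-voom (0.51, adjusted p = 0.0273) and did not in edgeR (adjusted p = 0.0861), and with the block it passed when the library mut 24 h 1-2 was left out (0.65, adjusted p = 0.0407). Its adjusted p ranged from 0.0273 to 0.457 over the alternatives. JUNB transcripts themselves were higher in clone 65 than in clone 1 (log2 difference 1.03 ± 0.16, limma-voom adjusted p = 0.000726), and its part in the CAMK2B difference was not tested.

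Between the WT clones, the estimate of clone 2 minus clone 27 was a log2 difference of 0.89 for ALDH3A1 (0.22 to 1.55, limma-voom adjusted p = 0.161). FGFBP1 differed by −0.14 (−0.70 to 0.41), RIPOR2 by 0.08 (−1.13 to 1.30) and CAMK2B by 0.30 (−0.26 to 0.86). Here too 0 of 4 passed, against 2.6% of all genes (387 genes, 2184 with an unadjusted p under 0.05, 1448 in edgeR without the block and 38 on series sums). ALDH3A1 passed without the block in limma-voom (adjusted p = 0.0451) and in edgeR (adjusted p = 0.0150), and its adjusted p ranged from 0.0150 to 0.315 over the alternatives. These p-values rest on 2 replications per clone and measure the spread between those libraries.

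The 72 h change itself was compared between clones in the same fit. In mut the estimate of clone 65 minus clone 1 was 0.93 on the log2 scale for CAMK2B, a shallower decrease in clone 65 (0.21 to 1.64, limma-voom adjusted p = 0.648), and the differences for ALDH3A1, FGFBP1 and RIPOR2 were 0.22, 0.12 and 0.34. In WT the estimates were −1.11 for ALDH3A1, −0.48 for FGFBP1, −0.31 (−3.26 to 2.64) for RIPOR2 and −1.15 (−2.40 to 0.10) for CAMK2B, a deeper decrease in clone 2. In both genotypes 0 of the 4 genes passed, and 0% of all genes did in limma-voom, with 1052 genes in mut and 846 in WT at an unadjusted p under 0.05. The edgeR test without the block also called 0 genes in either genotype. With 2 libraries per clone and state, a log2 difference of −1 between the WT clones lay within the intervals of all 4 genes.

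**Figure D3:**
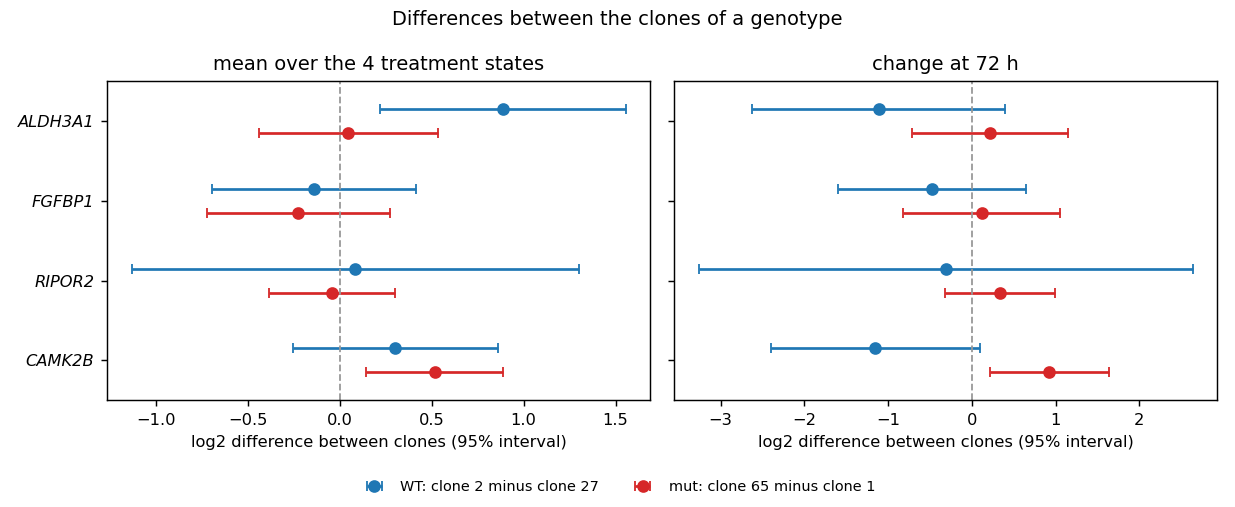
Log2 differences between the clones of a genotype with 95% intervals (limma-voom, series as a random block) for the 4 genes, over all treatment states and for the 72 h change, mut clone 65 minus clone 1 and WT clone 2 minus clone 27. The intervals of CAMK2B in mut (0.14 to 0.89, and 0.21 to 1.64 for the 72 h change) and of ALDH3A1 in WT (0.22 to 1.55) exclude 0, but none of these differences passed after adjustment over all genes.

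Related genes were read from 5 lists, none of which contains a member: the aldehyde dehydrogenase (ALDH) family, the AHR gene battery, FGF binding and signalling, RIPOR proteins and small GTPases, and CaM kinases. Of 73 listed genes 70 were in the table and 61 were tested. In WT at 72 h, 12 of them rose and 26 fell (limma-voom, adjusted p under 0.05), in mut 10 rose and 19 fell, and the interaction was called higher for 7 and lower for 3. Of all genes tested 13.9% rose and 38.4% fell in WT, 7.81% and 16.3% in mut, and 9.4% and 2.92% had a higher or lower interaction. In solvent 9 were higher and 7 lower in mut than in WT. The median log2 change of the 61 genes was −0.18 in WT and −0.16 in mut, beside −0.19 and −0.09 over all genes tested. Pairing the libraries by series in a replicate block, the interaction was called for 22 of the 61 instead of 10. Over all 14865 genes tested, the same block gave 3488 interaction calls instead of 1831, so that the rise was not particular to the listed genes. With TMM factors 17 rose and 22 fell in WT, 10 rose and 15 fell in mut, and the interaction was called for 5 and 4.

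Of 15 tested genes of the ALDH family, 13 fell and 0 rose in WT and 8 fell and 0 rose in mut, where 38.4% and 16.3% of all genes were called lower. With TMM factors 9 and 7 were lower and 0 were higher. Its median log2 change was −0.72 in WT and −0.46 in mut. ALDH3A2, the fatty aldehyde dehydrogenase and closest relative of ALDH3A1 on the list, fell in WT from 260.5 to 124 CPM (log2 change −1.07, limma-voom adjusted p = 1.48e-12) and in mut from 273 to 225 CPM (−0.28, adjusted p = 0.00160). Its interaction of 0.79 ± 0.09 (adjusted p = 7.36e-06) stands beside the estimate of 3.17 for ALDH3A1. The mitochondrial ALDH1B1 fell in WT by 0.40 (adjusted p = 0.00215), against a log2 change of 0.14 (adjusted p = 0.335) in mut and an interaction of 0.54 ± 0.15 (adjusted p = 0.0152), although its WT change missed the threshold with TMM factors (adjusted p = 0.0590). ALDH3B2 had the deepest WT change of the list (−4.54 ± 1.35, adjusted p = 0.00584), from 4.54 to 0.143 CPM, a level near that of 3 counts, and ALDH1L1 fell by 1.85 (adjusted p = 0.0345). The ALDH1L1 call in WT was lost with TMM factors (adjusted p = 0.0571). In mut neither gene passed (−2.72, adjusted p = 0.148, and −0.93, adjusted p = 0.0816), but both did with the series as a block (adjusted p = 0.000190 and 4.48e-06), which also called the ALDH3B2 interaction (adjusted p = 0.0271).

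In the AHR battery, to which ALDH3A1 belongs by its regulation, 2 of 7 tested genes rose and 4 fell in WT, and 1 rose and 2 fell in mut. TIPARP rose in WT (0.22, limma-voom adjusted p = 0.0288) and in mut (0.50, adjusted p = 6.81e-05), and ARNT in WT (0.22, adjusted p = 0.00594). CYP1A1 passed in neither genotype (−0.62, adjusted p = 0.312 in WT, and 0.98, adjusted p = 0.298 in mut). With the series as a block it passed in mut (adjusted p = 0.0186). AHR itself fell in both genotypes (−1.06 and −1.06, limma-voom adjusted p = 1.54e-05 and 1.76e-05), with an interaction of 0.00 (adjusted p = 0.998). Of its targets, CYP1B1, a xenobiotic-metabolising cytochrome, went from 36.9 to 8.92 CPM in WT (−2.21, adjusted p = 1.38e-05) and from 104 to 67.3 CPM in mut (−0.64, adjusted p = 0.0442, or 0.0792 with TMM factors), with an interaction of 1.57 ± 0.44 (adjusted p = 0.0172). The quinone reductase gene NQO1 fell in WT from 675 to 418 CPM (−0.70, adjusted p = 1.54e-05), against 781 to 696.5 CPM in mut (−0.16, adjusted p = 0.336), with an interaction of 0.53 ± 0.17 (adjusted p = 0.0348). Both interactions missed the threshold in edgeR and DESeq2, where the highest adjusted p was 0.0621 for CYP1B1 and 0.118 for NQO1, and 0 of 7 genes had an interaction call in either tool. That of NQO1 also missed it with TMM factors (adjusted p = 0.110) and without series 27-2. With the series as a block, in contrast, 5 of the 7 genes were called, CYP1B1 (adjusted p = 0.00123) and NQO1 (adjusted p = 0.000262) among them. That setting called 3488 of all 14865 genes tested, instead of 1831. UGT1A6 fell by 1.76 in WT (adjusted p = 0.00641), but it shares its downstream exons with the other UGT1A genes, so that its counts are uncertain.

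Among the FGF genes, 2 of 12 rose and 6 fell in WT, and 3 rose and 5 fell in mut. The receptor gene FGFR2 moved in opposite directions, from 14.7 to 9.78 CPM in WT (−0.61, limma-voom adjusted p = 0.00168) and from 9.08 to 13.8 CPM in mut (0.63, adjusted p = 0.00315), with an interaction of 1.24 ± 0.22 (adjusted p = 0.000562). FGFR3, another receptor, fell in both (−2.82 and −1.82, adjusted p = 2.06e-07 and 1.50e-06). The carrier FGFBP3, the paralogue of FGFBP1, fell by 1.98 in WT (adjusted p = 6.61e-05) and by 0.91 in mut (adjusted p = 0.0274). Its level was low throughout, from 0.795 to 0.225 CPM in WT and from 0.813 to 0.438 CPM in mut. The cell-surface proteoglycan GPC1 fell by 0.67 (adjusted p = 2.01e-09) and by 0.28 (adjusted p = 0.00160), with an interaction of 0.39 ± 0.09 (adjusted p = 0.00441).

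Of the RIPOR and small GTPase genes, 4 of 14 rose and 0 fell in WT (7 and 0 with TMM factors), while 2 rose and 1 fell in mut. RIPOR1, the paralogue of RIPOR2, rose by 0.68 in WT and 0.62 in mut (limma-voom adjusted p = 1.32e-08 and 6.53e-07), in the direction opposite to the RIPOR2 estimates. RHOB, an inducible small GTPase, rose in WT from 10.0 to 21.1 CPM (1.08, adjusted p = 0.00112) and had 22.0 and 17.8 CPM in mut (−0.31, adjusted p = 0.330), with an interaction of −1.40 ± 0.35 (adjusted p = 0.00831). RHOC rose by 0.56 in WT (adjusted p = 1.82e-07) and by 0.27 in mut (adjusted p = 0.00587).

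In the CaM kinase list 4 of 13 genes rose and 3 fell in WT (6 and 3 with TMM factors), and 4 rose and 3 fell in mut. CAMK2D, the CaMKII delta subunit, fell by 0.72 in WT (limma-voom adjusted p = 5.82e-07) and by 0.36 in mut (adjusted p = 0.00576), a far smaller change than the CAMK2B estimate. CAMK1D moved in opposite directions, from 3.58 to 6.50 CPM in WT (0.85, adjusted p = 0.000172) and from 17.3 to 11.7 CPM in mut (−0.56, adjusted p = 0.000350), with an interaction of −1.41 ± 0.21 (adjusted p = 8.36e-05). The upstream kinase CAMKK1 fell in WT (−0.95, adjusted p = 1.04e-05) and had −0.26 in mut (adjusted p = 0.156), with an interaction of 0.70 ± 0.20 (adjusted p = 0.0242) that missed the threshold with TMM factors (adjusted p = 0.0570) and without series 27-2. CAMK1G rose by 2.03 in WT (adjusted p = 0.000254), from 0.336 to 1.17 CPM.

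**Figure D4:**
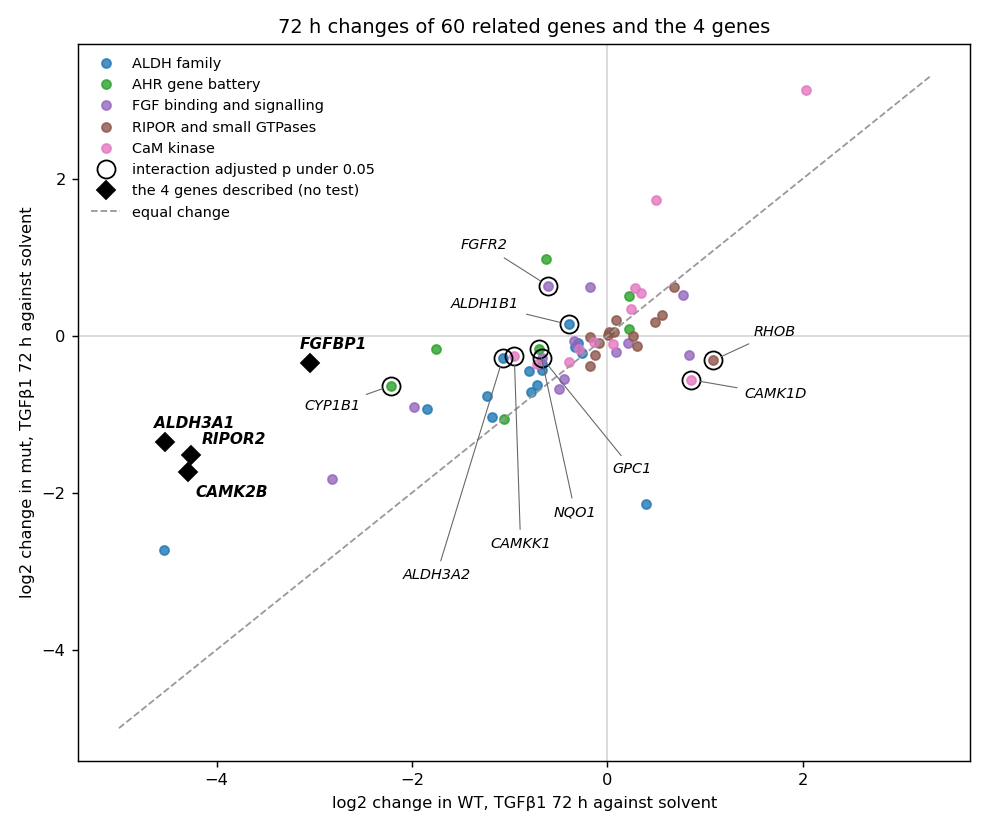
Log2 change in WT (horizontal) against log2 change in mut (vertical), TGFβ1 for 72 h against solvent, for 60 of the 61 related genes coloured by list and the 4 genes as diamonds, with a dashed line of equal change and rings around the 9 of them with an interaction call. The diamonds lie at WT changes of −4.53 to −3.04 and mut changes of −1.73 to −0.35, above the line.

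The genes most like each member were found by the mean absolute difference of log2 CPM over the 32 libraries, after each gene was centred on its own mean, among 9684 genes with at least 10 CPM in WT solvent. For CAMK2B the nearest were ENTPD2 at 0.348, ALDH3A1 at 0.403 and GGT5 at 0.522, where the median candidate stood at 1.38. For ALDH3A1 they were CAMK2B at 0.403, ENTPD2 at 0.463 and GLS2 at 0.546 (median 1.36). ALDH3A1 and CAMK2B were thus each within the nearest 3 of the other, and ENTPD2, an ecto-ATPase gene that went from 140 to 11.5 CPM in WT and from 354 to 94.2 CPM in mut, was near both. For RIPOR2 the nearest were IGFBP2 at 0.575, SYT12 at 0.805 and SUSD2 at 0.840 (median 2.22). IGFBP2, which encodes a binding protein of insulin-like growth factors, had 50.1 and 4.97 CPM in WT solvent and at 72 h and 271 and 143 CPM in mut, so that it too was higher in mut in both states. For FGFBP1 they were IRX3 at 0.361, NALCN at 0.392 and MAL2 at 0.394 (median 0.713), and 0 of these 3 remained nearest over the 8 group means, whereas for the other members 3 of 3 did. The 32 points of such a comparison share groups and clones. The members were chosen on these same libraries for a deep WT decrease that was shallower in mut. Their likeness to each other, beside the median candidate, is therefore in part set by the choice. Between members the difference ranged from 0.403 (ALDH3A1 and CAMK2B) to 1.90 (FGFBP1 and RIPOR2).

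A deep decrease in WT did not always go with an interaction call. Of 61 genes with at least 10 CPM in WT solvent and a WT log2 change of −2 or below, which include the 4 members, 24 had an interaction called higher and 0 lower, and 51 were also called lower in mut. At −3 or below these were 10, 0 and 18 of 21 genes. Since a deep WT decrease is itself part of the interaction, these counts describe the field and are no test. Among genes with at least 10 CPM in WT solvent whose 72 h and solvent WT libraries did not overlap, 3 comparators were taken. Those with the deepest WT decrease and no interaction call were KRT15, EHF and SUSD2. KRT15, a basal keratin, went from 571 to 21.8 CPM in WT (log2 change −4.64 ± 0.61, SE) and from 374 to 35.8 CPM in mut (−3.35 ± 0.54), with an interaction of 1.29 (limma-voom adjusted p = 0.324). EHF, an epithelial ETS transcription factor, went from 39.1 to 2.66 CPM in WT (−4.09 ± 0.94) and from 60.8 to 4.49 CPM in mut (−3.78 ± 0.66), with an interaction of 0.31 (adjusted p = 0.897). SUSD2, which was also among the genes nearest to RIPOR2, went from 56.0 to 4.28 CPM and from 233 to 53.4 CPM, with an interaction of 1.60 (adjusted p = 0.117). These genes were chosen for the missing call, so that the contrast with the 4 genes is set by the choice.

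**Figure D5:**
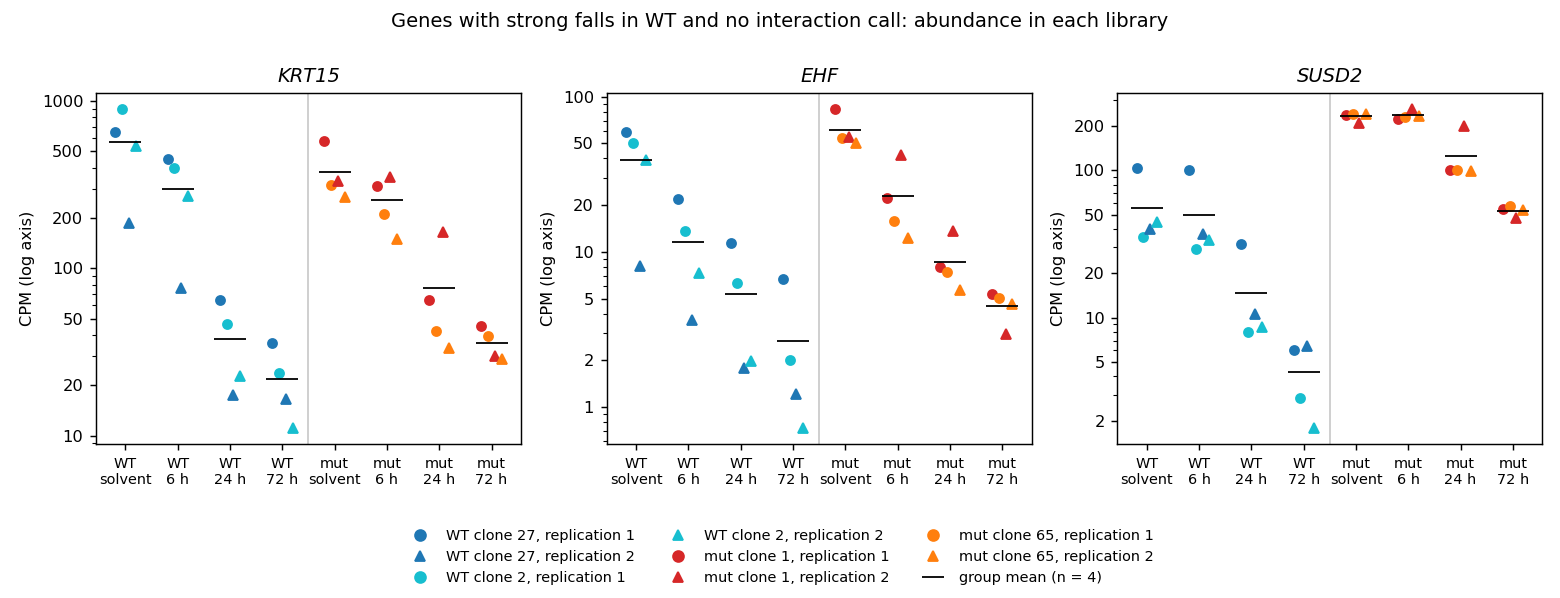
CPM on a log axis in each of the 32 libraries for KRT15, EHF and SUSD2, with the 8 groups along the horizontal axis, points coloured by clone and bars at the group means (n = 4). They are the 3 genes with the deepest WT decrease at 72 h and no interaction call among genes with at least 10 CPM in WT solvent and no overlap of 72 h and solvent WT libraries. EHF means end at 2.66 CPM in WT and 4.49 CPM in mut, and KRT15 means at 21.8 and 35.8 CPM.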

How the data were processed

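The data were RNA-seq libraries of MCF10A clones, and the deposited file holds raw counts of reads for each gene and library, made by the authors with Trimmomatic for trimming and STAR for alignment and counting on the Ensembl version of GRCh38. Tool versions and the strand setting are not given in the sources used here. The table held 17788 genes with a total of at least 4 counts and 0 unused sample columns, and GENCODE 44 named 17763 of them.

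The 4 genes and the lists of related genes were chosen with earlier results of these data known. Counts were scaled by library size and low genes removed with the filterByExpr function (edgeR 4.0.16, at a minimum count of 10 and a minimum total of 15). As in the study, voom and limma 3.58.1 (R 4.3.3) were fitted over all libraries with 1 term per group. Clones were compared with 1 term per clone and group and the series as a random block (consensus correlation 0.228). Tests were two-sided with Benjamini-Hochberg adjustment over all genes tested, at a threshold of 0.05. Named genes were the 4 genes, JUNB, YKT6 as the gene overlapping a member, listed genes with an interaction call or, per list, the 2 largest other WT changes, the 3 profiles nearest to each member, and 3 comparators. TIPARP, ARNT and CYP1A1 of the AHR battery were named in addition. Of the listed genes, 1 with an interaction call enters the counts, but its values are not reported. Levels per kb used the union of annotated exons.

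Replicate libraries differed by at least 11.7 chi-square units per degree of freedom, so that each was counted as 1 sample. The labels give clone and replication, and libraries of the same series come from the same clone. Their deviations from the group means correlated with a mean r of 0.302 over 48 pairs (lowest 0.0296, highest 0.673), against 0.0183 for the same clone in the other replication. The clone tests took this pairing into account with the series as a random block, and an alternative fit used the series as a replicate block. The main fit over the groups had no series term, so that its standard errors and p-values are unpaired.

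Alternatives were TMM factors, all genes unfiltered, genes averaging 50 counts or more, the edgeR quasi-likelihood test, the Wald test of DESeq2 1.42.0, blocks, series sums, a minimum change, group means and leaving out libraries or series. The estimates within each replication were chosen after seeing the data. Tests were tested on simulated data. Intervals rest on the counts and the spread between libraries, and with few clones per genotype they say little about other clones. Reads carry no molecular identifiers.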

Additional observations from a re-analysis of the deposited data

Results flagged for a closer look

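Of the 32 gene and group combinations of the 4 members, 1 held a library far from the other 3. FGFBP1 stood at 16 CPM in WT at 72 h in series 2-2, where the other libraries lay between 25.1 and 25.6 CPM. Chance alone would mark about 1 in 20 such groups.

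For 9 related genes the 72 h change differed between the genotypes in the interaction test of limma-voom (mut change minus WT change, log2). It was higher in mut for CYP1B1 (1.57), FGFR2 (1.24), ALDH3A2 (0.79), CAMKK1 (0.70), ALDH1B1 (0.54), NQO1 (0.53) and GPC1 (0.39) and lower for CAMK1D (−1.41) and RHOB (−1.40).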

How the results depend on the processing

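The 72 h changes and interactions of the 4 genes kept their direction under every alternative run. Since the genes were chosen on the same libraries, this describes the effect of the processing only. Over fits that left out 1 library each, the FGFBP1 change in mut ranged from −0.56 (without mut solvent 65-2) to −0.14 (without mut solvent 1-1), with −0.17 without mut 72 h 65-2, and series 1-2 left out gave −0.40. The other changes ranged from −4.94 to −4.18 in WT and −1.46 to −1.29 in mut for ALDH3A1, −3.18 to −2.88 in WT for FGFBP1, −4.53 to −4.09 and −1.64 to −1.37 for RIPOR2 and −4.54 to −4.07 and −1.97 to −1.43 for CAMK2B. The interactions ranged from 2.83 to 3.58 (ALDH3A1), 2.48 to 2.90 (FGFBP1), 2.58 to 3.01 (RIPOR2) and 2.32 to 2.86 (CAMK2B).

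Of the listed genes called, a minimum absolute log2 change of 1 left 12 of 38 in WT, 5 of 29 in mut, 4 of 10 in the interaction and 6 of 16 between genotypes in solvent. Pairing by the series as a replicate block raised the interaction to 22, and moved no other listed count by over 1.5 times. Over all genes tested it raised the interaction calls from 1831 to 3488. Leaving out series 1-2 left 10 calls in solvent. Leaving out 1 library gave 36 to 40 calls in WT, 24 to 31 in mut, 8 to 15 in the interaction and 9 to 17 in solvent, where 10 and 9 came without mut solvent 1-2 and 65-2. Interaction calls of single genes passed in 30 (CYP1B1), 28 (CAMKK1) and 25 (NQO1) of these 32 fits, and the other 6 genes described passed in all.

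Without the replicate block 1 member was called between the mut clones (CAMK2B) and 1 between the WT clones (ALDH3A1), the latter also by edgeR, 1 of 4. Leaving out 1 library gave 0 to 1 called between the mut clones and 0 to 0 in the other clone comparisons. The nearest profiles of FGFBP1 over group means shared 0 of 3 genes. The cause of these differences was not tested. Depth limits RIPOR2 in WT at 72 h, with 20 to 36 counts per library, and 2 clones per genotype limit what can be said beyond these clones.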
